A study of Cucumis melo with 9 samples.

Results

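The genes described here were 3 alcohol acyltransferase (AAT) genes of melon, CmAAT1 (MELO3C024771.2), CmAAT2 (MELO3C024766.2) and CmAAT3 (MELO3C024762.2), 3 of 29980 genes in the deposited table. They were chosen by gene ID, together with the genes that lie between them on chromosome 11. Their names are those the study gives to these IDs, and were not matched to AAT names used elsewhere. All 3 of 3 passed the filter on low values, a mean FPKM above 1, and were among the 15022 genes tested. CmAAT3 reached that mean only through the unchilled libraries. AATs belong to the BAHD family of plant acyltransferases. They move an acyl group from an acyl-CoA to an alcohol and so carry out the last step of volatile ester formation, and in ripe melon flesh the acetate esters they form are a main part of the fruity aroma. Aldehydes from the fatty acid and amino acid pathways are first reduced to alcohols by alcohol dehydrogenases, and carboxylesterases can split esters again.

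RNA was sequenced from ripe, greenhouse-grown fruit of the climacteric oriental melon 'HT' in 9 libraries, 3 per group. Recovered fruit (group A) spent 7 d at 4°C followed by 1 d at about 22°C, chilled fruit (group B) spent 8 d at 4°C, and unchilled fruit (group C) were picked 8 d after the other groups and were not stored. Each replicate held 3 fruits of this one cultivar, and all fruits were picked at the ripe stage. The study's methods describe both cold treatments as free of chilling injury. Groups A and B differ in the last day, whereas storage and harvest date both set them apart from group C, and these cannot be told apart. Whether fewer cells held a transcript or each cell held less of it also cannot be told apart in bulk RNA.

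Library totals were 15508367 to 19011486 counts. The TMM factors, which correct library totals for RNA composition, were 0.764 to 0.808 in chilled fruit and 1.11 to 1.13 in the other libraries. Unchilled replicate 1 and chilled replicate 1 stood apart within their groups. Their counts differed from those of the other 2 replicates by a chi-square per degree of freedom of 41.4 to 48.8 (unchilled) and 36.2 to 43.1 (chilled), against 14.5 and 6.51 between the other 2. The ripe-flesh genes CmNOR, a NAC regulator of ripening, and CmACO1, an ethylene-forming oxidase, were abundant in unchilled fruit at 806 ± 117 and 1242 ± 183 TMM-scaled FPKM (SD, n = 3). TMM-scaled FPKM is the deposited length-corrected value divided by the TMM factor of the library. A gene was called changed at an absolute log2 fold change above 1 with an adjusted p below 0.05 in edgeR's quasi-likelihood test over all genes tested.

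Coordinates are those of the deposited table, which names no genome build, and reads were aligned to melon genome DHL92, version 3.5.1. CmAAT3 lies on chromosome 11 from 7933534 to 7935291 on the minus strand, CmAAT2 from 8060892 to 8063565 on the minus strand, and CmAAT1 from 8184873 to 8187698 on the plus strand. CmAAT2 begins 126 kb after the end of CmAAT3, and CmAAT1 begins 121 kb after the end of CmAAT2. The counted length was 1771 bases for CmAAT1, 1622 for CmAAT2 and 1758 for CmAAT3. The span of CmAAT3 equals its counted length of 1758 bases, whereas CmAAT1 spans 2826 bases and CmAAT2 spans 2674, so that only the last 2 have uncounted sequence between their ends. All 3 carry the description of a benzyl alcohol O-benzoyltransferase or a protein like it. The table has 5 genes with that description, and all 5 lie between the starts of CmAAT3 and CmAAT1 or are one of the 3. None of the 3 overlaps another gene of the table. The sources used here do not say how reads shared between near-identical copies were assigned, so values of the 3 carry that uncertainty.

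CmAAT1 and CmAAT2 were among the most abundant transcripts of unchilled and recovered fruit, and CmAAT3 was far less abundant than either in every library. The level of CmAAT1 was 1745, 2163 and 2262 TMM-scaled FPKM in unchilled replicates 1 to 3, 307, 337 and 296 in chilled fruit, and 2833, 2512 and 2033 in recovered fruit. The chilled libraries lay below all others, and the unchilled and recovered libraries overlapped. Among all genes of a library ranked by FPKM, CmAAT1 stood at places 8 to 15 in unchilled fruit, 321 to 392 in chilled fruit and 5 to 11 in recovered fruit.

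The level of CmAAT2 was 1532, 1859 and 1585 TMM-scaled FPKM in unchilled fruit, 137, 77.8 and 81.8 in chilled fruit, and 1832, 2196 and 2174 in recovered fruit. Again the chilled libraries lay below all others, and chilled replicate 1 was the highest of the 3. The highest unchilled library was above the lowest recovered one, so these groups overlapped. CmAAT2 moved from places 14 to 18 in unchilled fruit to places 1182 to 2029 in chilled fruit and to places 8 to 11 in recovered fruit.

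Together CmAAT1 and CmAAT2 took 0.619%, 0.768% and 0.743% of all counts in the unchilled libraries, 0.0585%, 0.0583% and 0.0532% in the chilled libraries and 0.893%, 0.909% and 0.801% in the recovered libraries. The share in each recovered library was above that in each unchilled one. When the counts of the 3 genes were summed and tested as 1 feature, recovered exceeded unchilled fruit by 0.28 on the log2 scale, which did not pass (edgeR's quasi-likelihood test, adjusted p = 0.122).

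CmAAT3 had 74, 110 and 399 counts in unchilled fruit, 1, 4 and 5 in chilled fruit and 17, 36 and 13 in recovered fruit, or 2.44, 3.33 and 12.6, then 0.0463, 0.181 and 0.187, and then 0.521, 1.1 and 0.346 TMM-scaled FPKM. The 3 groups did not overlap at all, with unchilled fruit highest and chilled fruit lowest. Pairs of groups also did not overlap for 78.3% (chilled against unchilled), 79.9% (recovered against chilled) and 52.9% (recovered against unchilled) of all genes tested. Unchilled replicate 3 was far above the other unchilled libraries, with place 7665 by FPKM against 12990 and 12123. In chilled fruit CmAAT3 stood at places 16988 to 18054 and in recovered fruit at places 14055 to 15773, among at least 18219 genes with counts in each library. The single count in chilled replicate 1 has a 95% Poisson interval of 0.0253 to 5.57 counts, which covers counting error only.

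**Figure D1:**
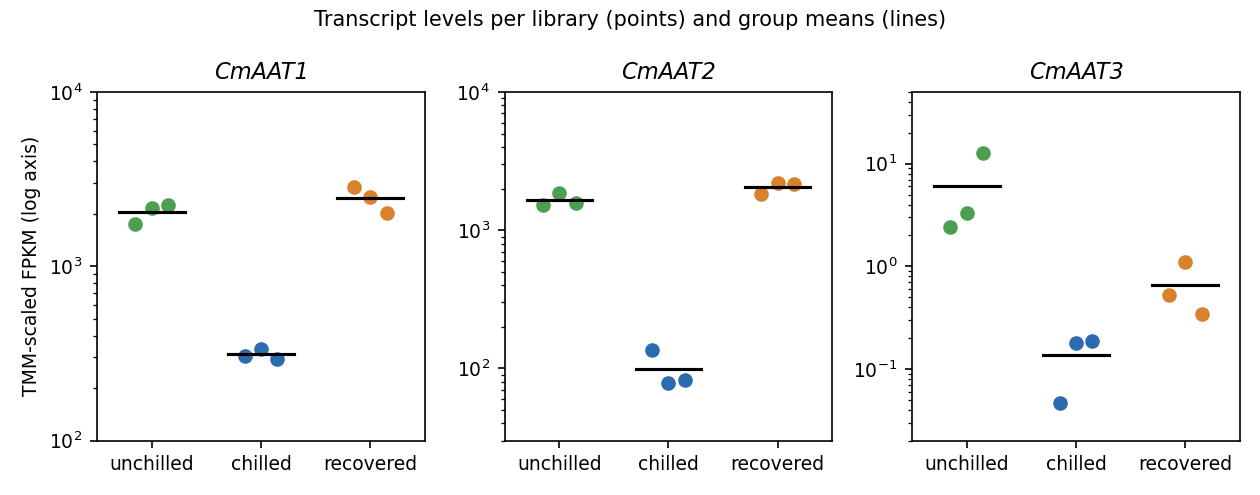
TMM-scaled FPKM of CmAAT1, CmAAT2 and CmAAT3 on log axes, with 1 point per library (replicates 1 to 3 from left to right in each group) and a line at the group mean. CmAAT1 and CmAAT2 fell to means of 313 and 98.8 in chilled fruit and stood at 2459 and 2067 in recovered fruit, whereas the group means of CmAAT3 were 6.11, 0.138 and 0.654.

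The comparison of chilled with unchilled fruit asked what cold storage, together with the difference in harvest date, went with. All 3 genes were called lower, in a comparison in which 48.3% of all genes tested were called in either direction and 26.2% were called lower. CmAAT1 fell by 2.71 on the log2 scale (SE 0.165, adjusted p = 4.95e-07), from a mean of 2057 ± 275 to 313 ± 20.8 TMM-scaled FPKM (SD, n = 3; edgeR's quasi-likelihood test). CmAAT2 fell by 4.07 (SE 0.238, edgeR adjusted p = 4.05e-07), from 1659 ± 175 to 98.8 ± 32.9. CmAAT3 fell by 5.40 (SE 0.894, edgeR adjusted p = 0.000493), from 6.11 ± 5.61 to 0.138 ± 0.0795.

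Counted from the strongest decrease among 15022 genes, CmAAT3 had rank 102, CmAAT2 rank 298 and CmAAT1 rank 1001. The rank of CmAAT3 is a description, since it passed the filter only through the unchilled libraries, where it is high. Without a filter its change was -5.55 (edgeR adjusted p = 0.00069). In all 3 the libraries did not overlap, which was also so for 78.3% of all genes tested. Without unchilled replicate 3, the decrease of CmAAT3 was -4.32 with an adjusted p of 0.000291, which moved its size by more than 1.5 times but left its call. Dividing by library totals alone shifted the median of all genes from -0.06 to -0.56 in this comparison and from -0.02 to 0.49 between recovered and chilled fruit, and gave -3.21 for CmAAT1, -4.58 for CmAAT2 and -5.89 for CmAAT3 against unchilled fruit.

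The comparison of recovered with chilled fruit asked what a day at room temperature changed after the same first 7 d of cold. It shares the chilled libraries with the comparison above. Among all genes tested 50.4% were called in either direction and 25.1% were called higher and 25.3% lower. CmAAT1 rose by 2.97 (SE 0.166, edgeR adjusted p = 2.83e-07) to 2459 ± 403 TMM-scaled FPKM, and CmAAT2 rose by 4.39 (SE 0.242, edgeR adjusted p = 2.57e-07) to 2067 ± 204. Counted from the strongest increase, CmAAT2 was in the top 1.36% and CmAAT1 in the top 4.89% of all genes tested. CmAAT3 was not called (2.17, SE 0.991, edgeR adjusted p = 0.0726, 95% interval -0.09 to 4.43), although each recovered library was above each chilled one at 13 counts or more against 5 or fewer. Such an arrangement held for 79.9% of all genes tested. The call of CmAAT3 turned on unchilled libraries that share the estimate of the spread: the adjusted p was 0.0479 without unchilled replicate 1 and 0.0115 without unchilled replicate 3, at the same 2.17.

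The comparison of recovered with unchilled fruit asked whether the levels after a day at room temperature were those of fruit that had not been stored. Far fewer genes differed here, with 12.8% called in either direction, 3.66% higher and 9.15% lower. CmAAT1 and CmAAT2 were not called. The difference was 0.26 for CmAAT1 (edgeR adjusted p = 0.225, 95% interval -0.09 to 0.60) and 0.32 for CmAAT2 (edgeR adjusted p = 0.271, 95% interval -0.16 to 0.79), so that neither interval reaches a doubling. CmAAT3 was called lower in recovered fruit, by -3.23 (SE 0.707, edgeR adjusted p = 0.00822), and no recovered library reached the lowest unchilled one, as was so without overlap in either direction for 52.9% of all genes tested. CmAAT3 passed the filter only through the unchilled libraries, and without a filter its difference was -3.25 (edgeR adjusted p = 0.012). Without unchilled replicate 3 the difference of CmAAT3 was -2.14, with an adjusted p of 0.0163.

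The order of levels was therefore recovered, unchilled, chilled for CmAAT1 and CmAAT2, of which the first 2 neighbours did not differ beyond their spread. For CmAAT3 the order was unchilled, recovered, chilled, of which the last 2 neighbours did not pass the test.

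The genes also changed in proportion to each other, which can be read within a library without any scaling between libraries. CmAAT1 was 1.14, 1.16 and 1.43 times as abundant as CmAAT2 in unchilled fruit, 2.25, 4.33 and 3.62 times in chilled fruit and 1.55, 1.14 and 0.935 times in recovered fruit, by FPKM. The chilled libraries were all above the others, and the unchilled and recovered ones overlapped. The mean log2 ratio was 0.31 ± 0.18, 1.71 ± 0.49 and 0.24 ± 0.37 (SD, n = 3), and the exact permutation test of the F ratio over the 3 groups gave p = 0.0321, or 0.0482 adjusted over the 3 ratios tested (two-sided by construction, smallest p possible 0.00357). With 3 against 3 libraries a pair of groups cannot go below 0.10, which is what chilled against unchilled fruit gave.

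CmAAT3 became scarcer relative to CmAAT1. CmAAT1 was 714, 649 and 180 times as abundant as CmAAT3 in unchilled fruit, 6644, 1863 and 1586 times in chilled fruit and 5439, 2292 and 5877 times in recovered fruit. The unchilled libraries were all below the others, and the chilled and recovered ones overlapped. The exact permutation p was 0.0143, and 0.0429 after adjustment. The ratio of CmAAT2 to CmAAT3, with mean log2 values of 8.47 ± 1.29, 9.68 ± 1.60 and 11.79 ± 0.82, did not pass (exact permutation p = 0.0714). The calls of the first 2 ratios were each lost when some single libraries were left out. The adjusted exact p of CmAAT1 over CmAAT2 was between 0.0589 and 0.107 without recovered replicate 2 or 3 or any one of the 3 unchilled replicates, and that of CmAAT1 over CmAAT3 was between 0.0536 and 0.107 without recovered replicate 1, 2 or 3 or any one of the 3 unchilled replicates. The ratio of CmAAT2 to CmAAT3 instead passed without chilled replicate 1 (adjusted exact p = 0.0393).

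**Figure D2:**
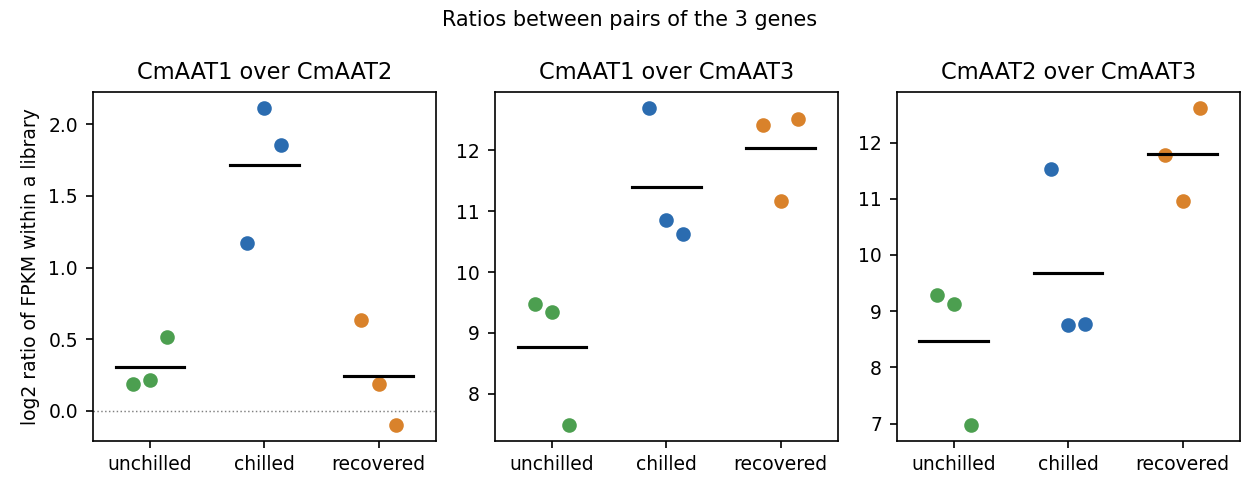
Log2 ratio of FPKM within each library for the 3 pairs of genes, with 1 point per library (replicates 1 to 3 from left to right) and a line at the group mean. CmAAT1 over CmAAT2 was 1.17 to 2.11 in chilled fruit and at most 0.63 elsewhere, and CmAAT1 over CmAAT3 was at most 9.48 in unchilled fruit and at least 10.63 elsewhere.

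The 254 kb from the start of CmAAT3 to the end of CmAAT1 held little other transcription. Of the 13 genes that start between them, 7 had 0 counts in all libraries, while the limit of 3 counts over all libraries allows up to 0.0199 CPM. A further 5 had between 1 and 99 counts in all, and 6 are listed as unknown proteins. Both other genes described as benzyl alcohol O-benzoyltransferase-like had no or almost no reads assigned to them. The uncertainty over reads shared between near-identical copies holds for them too. MELO3C024764.2, 29.9 kb from the start of CmAAT3, had 0 counts in all libraries. MELO3C024769.2 had 4, 6 and 7 counts in unchilled fruit, 10, 8 and 2 in chilled fruit and 5, 6 and 3 in recovered fruit, which overlapped throughout, so that the abundant members CmAAT2 and CmAAT1 flank a copy with almost no reads.

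Only 2 of the 13 genes between them passed the filter on mean FPKM and were tested. FPKM is per length, so a short gene can pass with few counts. MELO3C034862.2, described as a zinc finger BED domain protein like RICESLEEPER 2, begins 4.35 kb beyond the end of CmAAT2. It had 116, 86 and 109 counts in unchilled fruit, 181, 112 and 87 in chilled fruit and 638, 848 and 786 in recovered fruit. The recovered libraries were above all others and the other groups overlapped. It rose in recovered fruit by 2.0 against chilled (edgeR adjusted p = 0.000249) and by 2.75 against unchilled fruit (edgeR adjusted p = 0.000381), and stood at 79.9 ± 11.9 TMM-scaled FPKM there. MELO3C034864.2, an unknown protein, had 15, 19 and 24 counts in the chilled libraries and 0 in all others. It was at least 26-fold higher in chilled than in unchilled and at least 28.2-fold higher than in recovered fruit, against a floor of 3 counts over a group. With a counted length of 210 bases, it passed the filter through the chilled libraries alone, so these values only describe it. MELO3C034648.2, with 1131 counted bases, did not pass. Its counts were 2, 0 and 0 in unchilled, 0, 1 and 3 in chilled and 15, 20 and 11 in recovered fruit.

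Of the 5 genes before CmAAT3, all 5 were tested, and 1 rose and 3 fell in chilled against unchilled fruit. The gene that rose, MELO3C034855.2, passed the filter through the chilled libraries alone. Among all genes tested, 22.1% were called higher and 26.2% lower in that comparison. Of the 5 genes after CmAAT1, 1 was tested and was called in no comparison. The GDSL esterase-like gene MELO3C024761.2, whose start lies at -23.9 kb from that of CmAAT3, was named after its values were seen. It had 168, 172 and 171 counts in unchilled fruit, 32, 53 and 46 in chilled fruit and 309, 274 and 268 in recovered fruit.

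**Figure D3:**
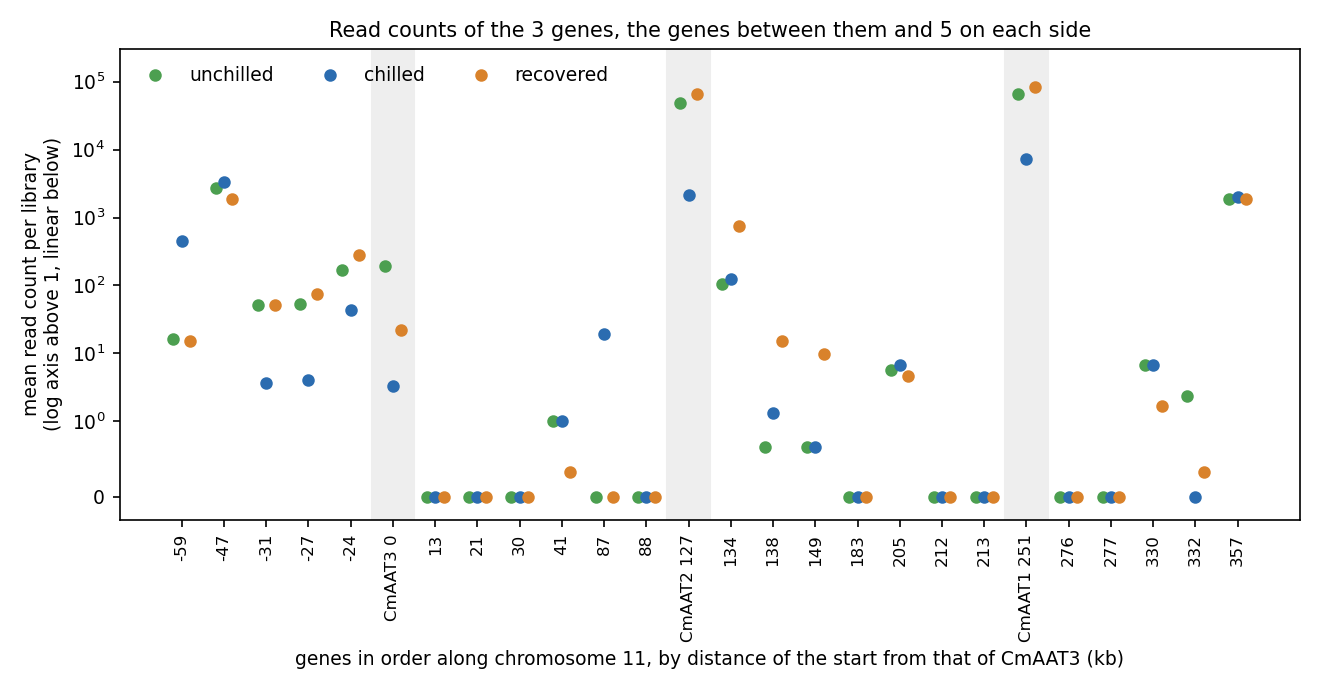
Mean read count per library in each group for CmAAT3, CmAAT2 and CmAAT1 (shaded), the 13 genes between them and 5 genes on each side, in chromosome order and labelled by the distance of their start from that of CmAAT3 in kb. The axis is logarithmic above 1 count and linear below. CmAAT1 and CmAAT2 stand far above their neighbours, and 7 of the genes between lie at 0 in every group.

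The other acyltransferases of the family did not share one pattern. The description words for BAHD enzymes found 37 other genes, of which 7 had no counts and 18 were tested. In chilled against unchilled fruit 5 rose, 7 fell and 6 were not called (median -0.56, against -0.06 over all genes tested), and in recovered against chilled fruit 8 rose, 6 fell and 4 were not called (median 0.49, against -0.02). Recovered fruit had 2 higher and 5 lower than unchilled fruit. Over all genes tested, 48.3%, 50.4% and 12.8% were called in these 3 comparisons. Among the 6 most abundant, 3 genes described as malonyltransferases, which attach malonyl groups to glycosides of anthocyanins or phenolics, rose in the cold. The highest of them, MELO3C035293.2, stood at 285 ± 36.9, 1072 ± 259 and 406 ± 63.5 TMM-scaled FPKM in unchilled, chilled and recovered fruit, and rose by 1.91 (edgeR adjusted p = 1.38e-05). MELO3C021064.2 rose by 2.26. MELO3C020675.2 rose by 1.20, a call lost with library totals and with limma (0.70 each).

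A pair of genes described as hydroxycinnamoyl-CoA shikimate/quinate hydroxycinnamoyltransferase, enzymes of lignin precursor synthesis, were not called in chilled fruit but were called higher in recovered than in unchilled fruit, MELO3C027219.2 by 1.05 and MELO3C023474.2 by 1.08. Both calls were at the fold threshold and were lost when single libraries were left out, at 0.99 without recovered replicate 1 and 0.98 without unchilled replicate 3 for the first and at 0.99 without unchilled replicate 3 for the second. Of these 6, MELO3C016771.2, described only as a transferase family protein, was the one called lower in chilled fruit, where it fell by 3.44 on the log2 scale (edgeR adjusted p = 3.16e-07), and it rose again by 2.6. The summed level of the 37 genes was 0.201% to 0.212% of library FPKM in unchilled, 0.24% to 0.299% in chilled and 0.232% to 0.272% in recovered fruit.

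The genes that lead to and from the AAT step were taken from the genes the study names, a list chosen on these samples and so no independent evidence of direction. Enzyme roles on the list are those of the study, and some deposited descriptions differ. CmHPL1 and CmHPL2 are described as allene oxide synthase, CmMGL as cystathionine gamma-synthase and CmAADC1 as serine decarboxylase. MELO3C030668.2 and MELO3C020508.2, listed as phenylacetaldehyde reductases, are described as cinnamoyl-CoA reductase. Of the 37 genes listed, 35 were tested. In chilled against unchilled fruit 5 rose and 22 fell (median -1.57), where 22.1% of all genes tested were called higher and 26.2% lower. In recovered against chilled fruit 16 rose and 6 fell (median 0.96), where the shares of all genes were 25.1% and 25.3%. In recovered against unchilled fruit 4 were higher and 4 lower (median -0.02), where they were 3.66% and 9.15%. Alcohol dehydrogenases supply the alcohol substrates. CmADH1 went from 182 ± 47.7 to 24.1 ± 1.92 and to 479 ± 109 TMM-scaled FPKM, and CmADH2 from 834 ± 39.3 to 62.8 ± 41.1 and to 1126 ± 125. In chilled fruit CmADH1 fell by 2.92 and CmADH2 fell by 3.73 on the log2 scale. CmADH1 was called higher in recovered than in unchilled fruit (1.40, edgeR adjusted p = 0.00135), whereas CmADH2, like CmAAT1 and CmAAT2, was not (0.43, edgeR adjusted p = 0.392).

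CmADH7 fell by 1.66, and CmADH6 was not called in any comparison. CmBCAT1, an aminotransferase of branched-chain amino acids, had the widest swing of the numbered genes on this list, from 329 ± 161 to 12.4 ± 0.741 and to 1031 ± 242 TMM-scaled FPKM. It fell by 4.73, rose by 6.37 and was higher in recovered than in unchilled fruit by 1.65 (edgeR adjusted p = 0.0095). CmArAT1, an aromatic aminotransferase, and CmAADC1, an amino acid decarboxylase, fell by 2.71 and 2.33 and rose by 3.21 and 1.91. The methionine lyase CmMGL was not called in any comparison, and neither was the pyruvate decarboxylase CmPDC2, whereas CmPDC1 was called only higher in recovered than in chilled fruit (1.27, edgeR adjusted p = 0.00937).

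The list does not hold the AAT genes. Like CmAAT3, 4 genes of the list were called lower in recovered than in unchilled fruit. CmLOX18, a lipoxygenase that starts the breakdown of fatty acids to aldehydes, stood at 110 ± 8.62, 5.5 ± 1.74 and 8.44 ± 5.25 TMM-scaled FPKM, and was lower in recovered than in unchilled fruit by -3.71 (edgeR adjusted p = 0.000458). CmHPL1, a hydroperoxide lyase of the same route, stood at 45.9 ± 13.8, 17.4 ± 3.11 and 3.12 ± 1.65, and fell again between chilled and recovered fruit, by 2.48 on the log2 scale. The other 2 were phenylacetaldehyde reductases, of which MELO3C030668.2 stood at 24.5 ± 5.5, 0.992 ± 0.528 and 4.78 ± 1.72. MELO3C020508.2 of the same group was not called in that comparison (-0.93). CmLOX8 and CmHPL2 fell in chilled fruit by 1.16 and 1.14 and were not called in recovered against unchilled fruit, and CmLOX9 rose in chilled fruit by 1.45. The call of CmHPL2 was lost without unchilled replicate 2 (-0.95), and that of CmLOX9 with library totals (0.95) and with limma at pseudocounts of 1 and 0.1 (0.91 and 0.95).

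Of the carboxylesterases, which hydrolyse esters, 1 was tested. CmCXE2 rose in chilled fruit by 1.46 (edgeR adjusted p = 0.000499), from 2.49 ± 0.326 to 6.87 ± 1.84 TMM-scaled FPKM, and fell on recovery by 1.07. Its first call was lost with library totals (0.97) and with limma at pseudocounts of 1 and 0.1 (0.75 and 0.91), and its second with these (-0.57, -0.44 and -0.53), without a filter (-0.93), in a fit of only the groups compared (-0.98) and without recovered replicate 3 (-0.94) or chilled replicate 3 (-0.87). CmCXE1 stood below the filter at 0.0814, 1.42 and 0.15 and was not tested. The 6 regulators and ethylene genes taken from the study's list of gene IDs, a choice among more regulators it names, were all called in chilled against unchilled fruit, 2 higher and 4 lower, where 48.3% of all genes tested were called. CmNOR fell by 4.98 and rose by 5.46, and its unchilled and recovered levels were 806 ± 117 and 1125 ± 140. CmACO1 fell by 1.19 and CmMYB44 by 1.29. CmCBF1, a cold-response factor, fell by 2.98. For the CBF/DREB family to which it belongs, the study reports higher levels of multiple members in chilled fruit. Other members of that family were not looked at here. The call of CmACO1 was lost without any one of the 3 chilled replicates or unchilled replicate 2 or 3 (edgeR adjusted p = 0.0506 to 0.076), and that of CmCBF1 without chilled replicate 2 or 3 or unchilled replicate 1 (edgeR adjusted p = 0.0606 to 0.0729). CmACS1, which makes the ethylene precursor, and CmbZIP1 rose in the cold by 4.83 and 2.54.

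**Figure D4:**
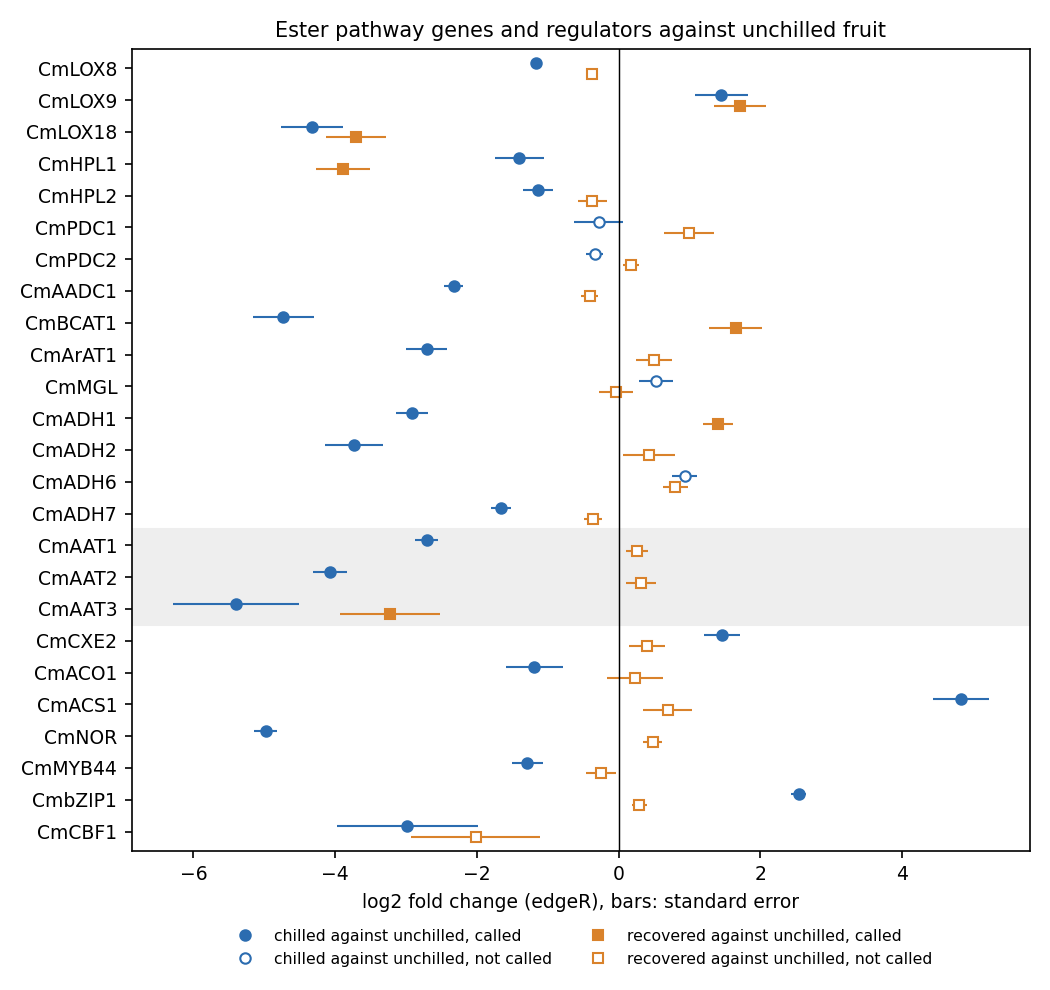
Log2 fold change of ester pathway genes and regulators in chilled (circles) and recovered (squares) against unchilled fruit by edgeR, with standard errors, and filled symbols for genes called. The 3 AAT genes are shaded. CmAAT1 and CmAAT2 lie at -2.71 and -4.07 in chilled and at 0.26 and 0.32 in recovered fruit, and CmAAT3 at -5.40 and -3.23.

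For each of the 3, the genes most like it were found among 8680 described genes with a mean of at least 10 TMM-scaled FPKM. Likeness was measured by the root mean square (RMS) difference of centred log2(TMM-scaled FPKM + 1) over the 9 libraries. The gene most like CmAAT2 was CmADH2, with an RMS difference of 0.23. Its levels were 857, 855 and 788 TMM-scaled FPKM in unchilled fruit, 110, 41.7 and 36.5 in chilled fruit and 989, 1153 and 1235 in recovered fruit, and as for CmAAT2, chilled replicate 1 was the highest chilled library. CmADH2 remained first with a pseudocount of 0.1 (RMS difference 0.232) and on deposited FPKM without TMM scaling. The next 4 had differences of 0.261 to 0.37. They began with a cytochrome P450 71A1-like gene, MELO3C002310.2, and a protein like nuclear fusion defective 4, MELO3C031014.2. Then came a homeobox leucine-zipper gene, MELO3C031876.2, and a DnaJ-like chaperone gene, MELO3C011864.2. Their order also rests on the pseudocount, since with 0.1 MELO3C022701.2 stood second in place of MELO3C002310.2.

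CmAAT1 was followed most closely by MELO3C006858.2, which the table labels At5g51840, and by the pantothenate kinase gene MELO3C011992.2, both at 0.153. The next were the syntaxin-31 gene MELO3C025172.2, the protein kinase gene MELO3C003233.2 and MELO3C015814.2, a subunit of a tRNA methyltransferase. These rest on the pseudocount, since with 0.1 in place of 1 MELO3C006858.2 fell to place 185. CmAAT2 would stand at place 783 by its likeness to CmAAT1, with a difference of 0.737, and CmAAT3 at place 2586, with 1.18.

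Among the genes ranked, none followed CmAAT3 as closely. Genes at its own lower level were not ranked, and the pseudocount of 1 shrinks its fold changes. The nearest were the DA1-related gene MELO3C007499.2 (0.535), the malic enzyme gene MELO3C015407.2, the receptor-like kinase gene MELO3C026689.2, the SAR DEFICIENT 1-like gene MELO3C004202.2 and the enolase gene MELO3C017268.2 (0.563). With a pseudocount of 0.1, MELO3C007499.2 stood at place 54 and other genes were nearest.

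**Figure D5:**
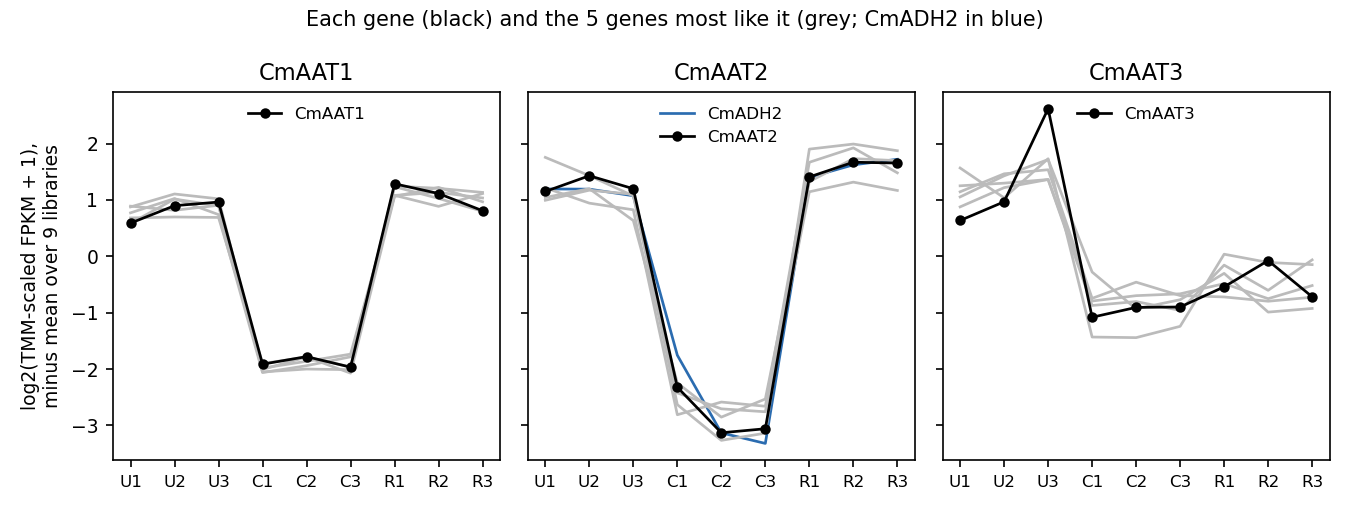
Centred log2(TMM-scaled FPKM + 1) of CmAAT1, CmAAT2 and CmAAT3 (black) and of the 5 genes most like each (grey), by library: unchilled (U1 to U3), chilled (C1 to C3) and recovered (R1 to R3). CmADH2, in blue, runs closest to CmAAT2 with an RMS difference of 0.23, and the curves around CmAAT3 are the loosest, at 0.535 or more.

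Transcripts typical of other tissues of the fruit also differed between groups. The calls given for these lists are for chilled against unchilled fruit, in which 22.1% of all genes tested were called higher and 26.2% lower. Summed over the photosystem and chlorophyll-binding list, of which 58 of 92 genes were tested and 7 rose and 22 fell, the level was 4.35% to 5.93% of library FPKM in unchilled, 1.29% to 1.5% in chilled and 1.85% to 2.53% in recovered fruit. Cutin and wax enzymes, with 26 of 39 genes tested, of which 3 rose and 8 fell, took 0.23% to 0.715%, 0.0762% to 0.129% and 0.113% to 0.247%. Phloem proteins, with 9 of 18 tested and 4 higher and 4 lower, took 0.055% to 0.105%, 0.0321% to 0.0412% and 0.0154% to 0.0212%. Seed storage and oil body proteins, with 5 of 17 tested and 3 higher and 1 lower, took at most 0.0231% in any library, and 4 of the 17 had no counts. The part of these differences in the changes of the AAT genes was not tested.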

How the data were processed

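RNA from 9 libraries (3 groups of 3 replicates, 3 fruits each) was analysed from one deposited table of read counts and FPKM per gene. According to the study's methods, the authors trimmed reads with Cutadapt, aligned them to DHL92 version 3.5.1 with HISAT2 and counted reads per gene with HTSeq. The submitters' processing notes give cutadapt 1.15 and HISAT2 2.0.5, which differ from the versions given in the study's methods. The sources used here do not give the strand setting. The FPKM deposited by the authors equal count divided by gene length and library total (largest difference 4.5e-11). Replicates are samples so numbered in the labels, and p-values measure the spread between them.

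Counts as deposited were tested in R 4.3.3 with edgeR 4.0.16 (TMM, robust quasi-likelihood fit of all 9 libraries, no block) for 15022 genes with a mean FPKM above 1. A gene was called when its p, adjusted over these genes by Benjamini-Hochberg, was below 0.05 and its log2 fold change was beyond 1 in either direction. SE is the absolute log2 fold change over the square root of F. Pairs of replicates were compared by chi-square, and none were duplicates. Ratios of FPKM within libraries needed no pseudocount and were tested over all 1680 arrangements. The fits were checked on simulated counts.

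The members and lists were chosen with earlier results of these data known. Named genes were the 3 genes, those between them, the numbered ester pathway genes and regulators with the 2 of the other listed genes that changed most in chilled against unchilled fruit, the 6 most abundant other BAHD genes, and the 5 genes most like each of the 3 among described genes with a mean of at least 10 TMM-scaled FPKM. Alternatives were DESeq2 1.42.0 and its size factors, library totals, limma 3.58.1 on log2 FPKM, other filters and thresholds, a replicate block, a fit of 2 groups, summed counts and each library left out. The likeness with a pseudocount of 0.1 and on deposited FPKM was added after seeing the data. Promoter motifs were not analysed here.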

Additional observations from a re-analysis of the deposited data

How the results depend on the processing

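CmAAT1 and CmAAT2 kept their direction and their side of the thresholds in all 20 alternatives run on their own counts for each comparison, with ranges of -3.21 to -2.64 and -4.61 to -3.93 for chilled against unchilled, 2.86 to 3.48 and 4.24 to 4.94 for recovered against chilled, and 0.14 to 0.38 and 0.25 to 0.41 for recovered against unchilled fruit. CmAAT3 stayed lower in chilled than in unchilled fruit in all 20 (-5.89 to -2.54). Summing the counts of CmAAT1 and CmAAT2, or of all 3 genes, gave -3.15, 3.43 and 0.28 in the 3 comparisons. In recovered against chilled fruit CmAAT3 passed with library totals (2.66), DESeq2 (2.22), limma with a pseudocount of 0.1 (1.92), a fit of only the groups compared (2.26) and, by construction, with the counts of the 3 genes summed (3.43). Leaving out single libraries gave 1.58 to 2.48. Summing also gave 0.28 in place of -3.23 in recovered against unchilled fruit, since CmAAT1 and CmAAT2 make up nearly all of the sum. Without a fold threshold the counts of genes called were 11326, 11578 and 5494, by construction. The differences of mean log2 ratio between chilled and unchilled fruit with single libraries left out were 1.21 to 1.68 (CmAAT1 over CmAAT2), 1.98 to 3.01 (CmAAT1 over CmAAT3) and 0.30 to 1.69 (CmAAT2 over CmAAT3).

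Same-numbered replicates of different groups did not deviate together (r from -0.137 to 0.149), so the numbers were not taken to pair samples. With the replicate block, CmAAT3 in recovered against chilled fruit was 2.36 with an edgeR adjusted p of 0.0467, and the block changed no other call of the 3 genes.

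Among other named genes, signs turned only where the gene was not called in the fit of all 9 libraries. In recovered against chilled fruit these were MELO3C004202.2 (0.43 with library totals, 0.35 and 0.41 with limma at pseudocounts of 1 and 0.1, 0.05 without a filter, -0.38 to 0.17 with libraries left out), MELO3C007499.2 (0.36, 0.31 and 0.37 with the first 3 of these), CmADH6, MELO3C026553.2 (0.38, 0.37, 0.39 and 0.01 with the first 4, -0.30 to 0.03 with libraries left out) and, with libraries left out, CmCBF1, MELO3C006869.2 (-1.5 to 1.49), CmLOX9, MELO3C014482.2 (-0.09 to 0.62) and CmLOX18, MELO3C024348.2 (-0.01 to 0.90). In recovered against unchilled fruit they were CmMGL, MELO3C013774.2 (0.01 with DESeq2 and with its size factors, -0.29 to 0.19 with libraries left out), MELO3C006858.2 (-0.09 to 0.14) and CmACO1, MELO3C014437.2 (-0.34 to 0.60). The causes were not tested. With 1 to 5 counts of CmAAT3 in each chilled library, depth limits its fold changes.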

Other observations

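The first gene of the 5 before CmAAT3, MELO3C034855.2, an unknown protein whose start lies at -58.6 kb from that of CmAAT3, was chosen after its values were seen. It had 17, 20 and 12 counts in unchilled fruit, 500, 467 and 399 in chilled fruit and 11, 13 and 22 in recovered fruit. It was higher in chilled than in unchilled fruit by 5.24 on the log2 scale and fell on recovery by 5.46, the opposite of CmAAT1 and CmAAT2. It passed the filter through the chilled libraries alone, so these values only describe it. Between it and CmAAT3 lie MELO3C034857.2 and MELO3C034858.2, also named after their values were seen, of which, in chilled fruit, the first fell by 3.36 and the second fell by 3.26 on the log2 scale, and which rose on recovery by 3.23 and 3.62. Their counts were at most 6 and 4 in any chilled library.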
